A study of Homo sapiens with 6 samples.

Results

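The RBM genes of 2 Ewing sarcoma cell lines were examined after inhibition of CDK7. Members were taken by name, as every gene listed as protein-coding whose symbol starts with RBM followed by a digit. This gave 39 of the 27420 genes measured, of which 20311 were protein-coding. A673 and SKNMC are established lines of Ewing sarcoma, a bone and soft tissue tumour driven by the EWS-FLI1 fusion. THZ1 binds covalently to CDK7, the kinase that phosphorylates RNA polymerase II at promoters, and cells of each line received DMSO (the vehicle), a low dose of 50 nM or a high dose of 200 nM THZ1 and were harvested at 6 h. RNA was sequenced from 1 library per condition, 6 in all, so differences between libraries carry no estimate of replicate spread and no test was run. Levels are FPKM, fragments scaled by transcript length and library size, and the read depth behind them is unknown.

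RBM stands for RNA-binding motif. Most members carry RNA recognition motifs, small folded domains that grip single-stranded RNA, and apart from this they share little. They act at nearly every step of an RNA's life: RBM5, RBM10, RBM17, RBM22, RBM25 and RBM39 in splicing, RBM8A in the exon junction complex left on spliced mRNA, RBM15 and RBM15B as adaptors that bring the N6-methyladenosine (m6A) writer to RNA, RBM7 in handing nuclear RNA to the exosome for decay, and RBM19 and RBM28 in making ribosomes. The symbol rule also took a pair of entries that are no RBM gene of their own, the readthrough RBM14-RBM4 and the antisense entry RBM12B-AS1.

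A gene was called active in a line when its FPKM with DMSO was above 1, and changes are given for active genes as log2((FPKM + 1) with THZ1 / (FPKM + 1) with DMSO). The added 1 shrinks the change of low genes. Calls of decreased or increased need a change of at least 2-fold on this scale. FPKM is a share of its library, so fewer transcripts of a gene per cell and more transcripts of other genes cannot be told apart, nor, in bulk RNA, can fewer cells of a type and less RNA per cell. Over the listed genes the libraries summed to between 97.8% and 100.5% of the DMSO library of their line. The share held by 77 ribosomal protein genes ran from 13.6% with DMSO over 16.1% to 17.7% at the high dose in A673, and from 19.0% over 24.7% to 29.7% in SKNMC. The median change over active genes shifted by -0.21 to -0.39 on the log2 scale when libraries were scaled to these genes, and by 0.22 to 0.48 when they were scaled to the 75th percentile of active genes. The 6 Ewing sarcoma markers CD99, FLI1, NKX2-2, NR0B1, STEAP1 and CCND1 were at 3.60 FPKM or more in every library. They were not steady, and all but CD99 were below DMSO in every THZ1 library. FLI1 went from 31.5 FPKM with DMSO to 4.26 at 200 nM in A673 and from 27.3 to 4.56 in SKNMC. Of 3 markers of other cell types, EPCAM and MYOD1 stayed under 1 FPKM, while the leukocyte gene PTPRC lay between 7.90 and 13.1 FPKM in SKNMC and at no more than 0.0291 in A673, and its part in differences between the lines was not tested.

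With DMSO, 34 members were active in A673 and 34 in SKNMC, 33 of them in both and 35 in at least 1 line. The 4 members active in neither were RBM20, a regulator of titin splicing in heart, RBM24, a muscle splicing regulator, and RBM44 and RBM46, known from germ cells. The nearest of them to the threshold were RBM20 and RBM44, both well under it, RBM20 at 0.412 FPKM in A673 and 0.0368 in SKNMC and RBM44 at 0.359 and 0.265. Just above it were RBM12B-AS1 at 1.38 FPKM in A673 and RBM43 at 1.93 in A673 and 1.92 in SKNMC. Active members were expressed above the middle of the transcriptome, with a median of 19.7 FPKM in A673 against 14.1 for all active genes and of 26.1 in SKNMC against 13.5. Above 10 FPKM were 26 of 34 members in A673 (76.5%, against 60.1% of all active genes) and 25 of 34 in SKNMC (73.5%, against 58.9%).

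**Figure D1:**
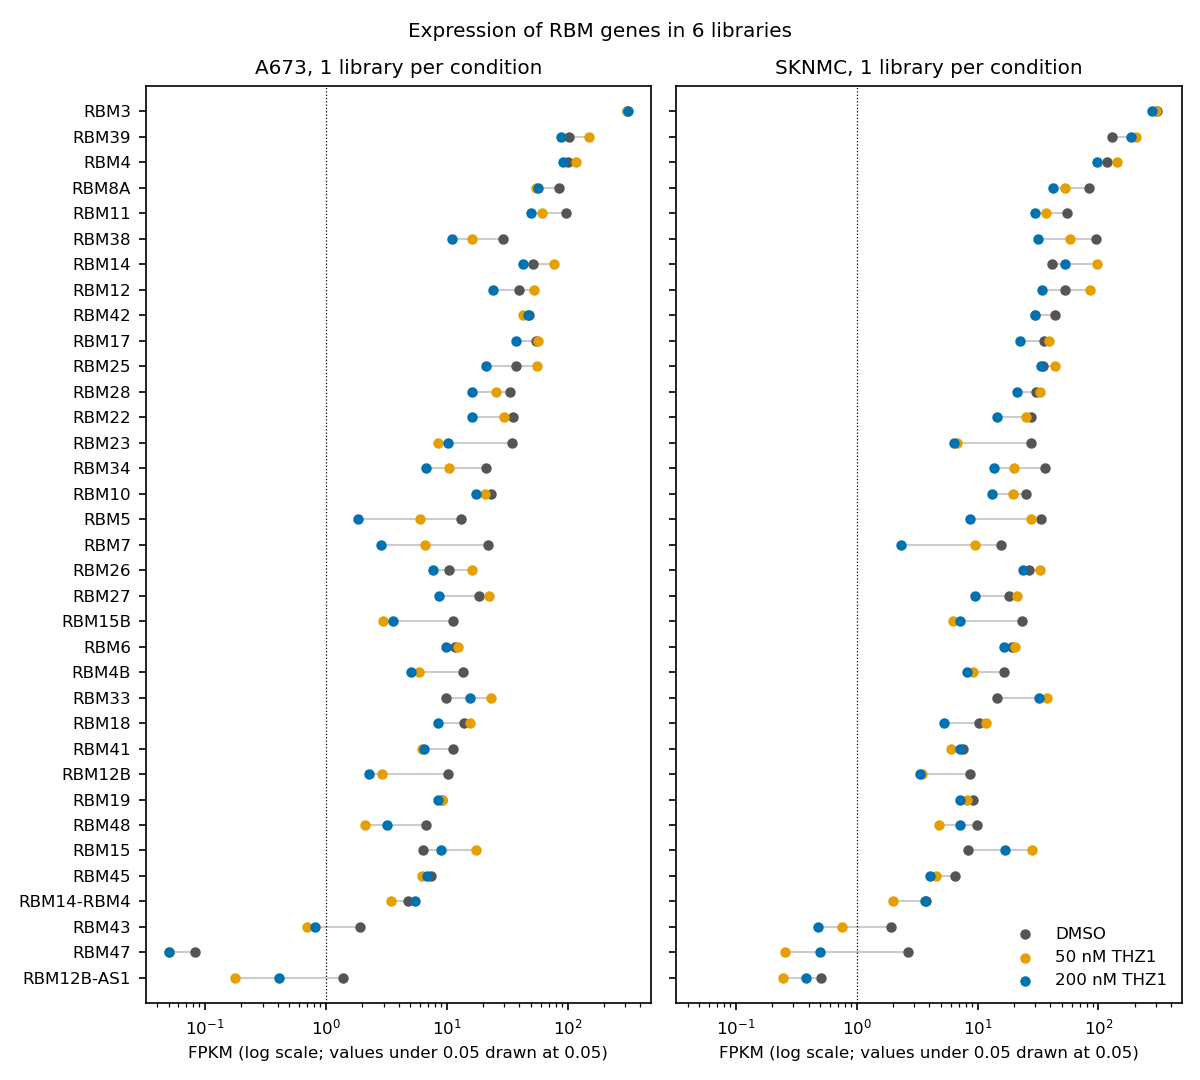
FPKM (log scale) of the 35 RBM genes above 1 FPKM with DMSO in at least 1 line, with 1 point per library, coloured by treatment, and a grey line over the range of the 3 libraries of a line; the dotted line marks 1 FPKM. Genes are ordered by their mean with DMSO, from RBM3 at the top, and among those above 10 FPKM with DMSO the widest span in both lines is that of RBM7.

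Promoter sequence is shown for members that changed at least 2-fold in the same direction in both lines at the low dose, since these are the clearest contrasts in the data: RBM15 and RBM33, which increased, and RBM15B and RBM23, which decreased (RBM12B, the remaining one, is named only). The 250 bases before the annotated start are given from RefSeq, build GRCh38.p14, 5′ to 3′ on the gene's strand, at chr1:110339127-110339376 (plus strand) for RBM15, chr7:155644411-155644660 (plus) for RBM33, chr3:51391035-51391284 (plus) for RBM15B and chr14:22919150-22919399 (minus) for RBM23. Capitals mark any match, on either strand, to a CCAAT box (CCAAT), a GC box (GGGCGG), an E-box (CACGTG) or an NRF1 site.
RBM15: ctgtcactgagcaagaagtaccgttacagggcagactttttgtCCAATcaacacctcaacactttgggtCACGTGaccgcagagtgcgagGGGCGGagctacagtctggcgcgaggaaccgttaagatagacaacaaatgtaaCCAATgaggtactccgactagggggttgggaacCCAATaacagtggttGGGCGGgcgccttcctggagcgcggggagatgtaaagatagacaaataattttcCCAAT
RBM33: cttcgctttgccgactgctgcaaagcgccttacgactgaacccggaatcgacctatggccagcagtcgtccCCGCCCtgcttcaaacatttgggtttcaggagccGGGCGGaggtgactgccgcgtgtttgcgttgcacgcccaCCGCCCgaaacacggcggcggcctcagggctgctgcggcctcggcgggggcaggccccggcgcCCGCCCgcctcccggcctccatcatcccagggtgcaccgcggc
RBM15B: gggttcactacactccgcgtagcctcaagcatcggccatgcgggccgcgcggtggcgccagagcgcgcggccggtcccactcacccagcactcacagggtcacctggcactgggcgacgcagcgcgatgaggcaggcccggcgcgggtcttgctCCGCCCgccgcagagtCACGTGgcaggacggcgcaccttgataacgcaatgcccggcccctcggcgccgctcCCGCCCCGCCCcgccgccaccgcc
RBM23: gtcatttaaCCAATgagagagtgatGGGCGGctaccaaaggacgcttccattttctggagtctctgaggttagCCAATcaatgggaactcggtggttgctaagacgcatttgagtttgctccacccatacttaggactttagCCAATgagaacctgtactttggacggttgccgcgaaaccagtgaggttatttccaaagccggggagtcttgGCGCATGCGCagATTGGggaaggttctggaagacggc

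The window of RBM15 held 4 CCAAT boxes, 2 GC boxes and 1 E-box. The window of RBM15B held no CCAAT box, 3 GC boxes of which 2 overlap, and 1 E-box, and that of RBM33 held 4 GC boxes alone. The window of RBM23 held 4 CCAAT boxes, 1 GC box and 1 NRF1 site. Among the genes shown, a CCAAT box thus stood in 1 of each direction, with the decreased RBM12B left out. Promoters of 34 of the 39 members were found in the table of 27305. A CCAAT box stood in 58.8% of them against 33.0% of all promoters, a GC box in 58.8% against 42.3%, an E-box in 8.82% against 6.49%, an NRF1 site in 17.6% against 5.53%, an ETS site (CCGGAAGT) in 11.8% against 3.64%, a CRE (TGACGTCA) in 8.82% against 1.77% and a TATA box (TATAAA) in 5.88% against 11.1%. The doubled GGAA letters bound by EWS-FLI1 (GGAAGGAA) were found in 0 of the 34, against 2.99% of all promoters. RBM14 and RBM14-RBM4 are both counted, and the median GC content was 62.4% over members and 58.0% over all promoters. A match is a run of letters in this window only. All promoters were taken whatever the activity or type of their gene, unlike the active genes used as background elsewhere. Whether the shares are particular to RBM genes was not tested.

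At 50 nM, 7 of the 34 active members decreased in A673 (20.6%, with 15.9% of all active genes called) and 2 increased (5.88%, with 0.343% called). In SKNMC 4 of 34 decreased (11.8%, with 15.8% called) and 3 increased (8.82%, with 0.471% called). The share that decreased was thus near that of the transcriptome, whereas increases, which are few anywhere at this dose, included RBM15 and RBM33 in both lines and RBM14 in SKNMC. The median log2 fold change of members was -0.23 in A673 against -0.27 for all active genes, and -0.29 in SKNMC against -0.32. The spread of members at this dose was wider, with an interquartile width of 1.13 against 0.80 in A673 and of 0.92 against 0.79 in SKNMC. Above DMSO at all were 14 of 34 in A673 (41.2%, with 29.9% of all active genes) and 13 of 34 in SKNMC (38.2%, with 27.0%). At a threshold of 1.5-fold, 14 members decreased in A673 (with 31.8% called) and 2 increased (with 1.78%), and in SKNMC 12 (with 33.5%) and 5 (with 2.43%). When each library was scaled to its ribosomal protein genes, the split of increased to decreased members went from 2 and 7 to 1 and 10 in A673 (with 0.162% and 21.9% of all active genes called under that scaling) and from 3 and 4 to 1 and 8 in SKNMC (with 0.16% and 22.2%).

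At 200 nM, 10 of 34 members decreased in A673 (29.4%, with 25.3% called) and 0 increased (with 0.126% called). In SKNMC 8 of 34 decreased (23.5%, with 27.3% called) and 1 increased, RBM33 (2.94%, with 0.462% called). The median log2 fold change of members was -0.69 in A673, lower than the -0.40 of all active genes, and -0.63 in SKNMC against -0.55. The interquartile width of members was here the narrower one, 0.84 against 1.08 in A673 and 0.80 against 0.94 in SKNMC. At 1.5-fold, 19 members decreased in A673 (with 41.1% called) and 1 increased (with 1.70%), and in SKNMC 18 (with 48.0%) and 2 (with 2.81%). Scaled to the 75th percentile of active genes the split in SKNMC was 3 increased and 6 decreased (with 4.4% and 14.0% of all active genes called under that scaling), and scaled to the ribosomal protein genes it was 0 and 19 (with 0.0757% and 46.3%).

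Between lines, at 50 nM, 3 of the 33 members active in both decreased in each (RBM23, RBM15B and RBM12B, with 11.4% of all shared active genes called), and 2 increased in each (RBM15 and RBM33, with 0.218% called). At 200 nM 7 decreased in each (RBM23, RBM38, RBM7, RBM34, RBM5, RBM15B and RBM12B, with 20.4% called) and 0 increased in each (with 0.0662% called). Scaled to the 75th percentile, 4 of these 7 kept the call in both lines (RBM23, RBM7, RBM5 and RBM15B), and RBM12B lost it at 50 nM. The share of all shared active genes called in both lines under that scaling was not computed. Signs of the change were opposite for 3 members at 50 nM (15.2% of all shared active genes had opposite signs) and for 4 at 200 nM (18.7%). Across the 33 genes, Spearman's rho between the A673 and the SKNMC log2 fold changes was 0.93 at 50 nM and 0.80 at 200 nM, against 0.84 and 0.82 over the 10574 genes active in both lines. These are descriptions over genes, which are not independent replicates, and the lines share no library.

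**Figure D2:**
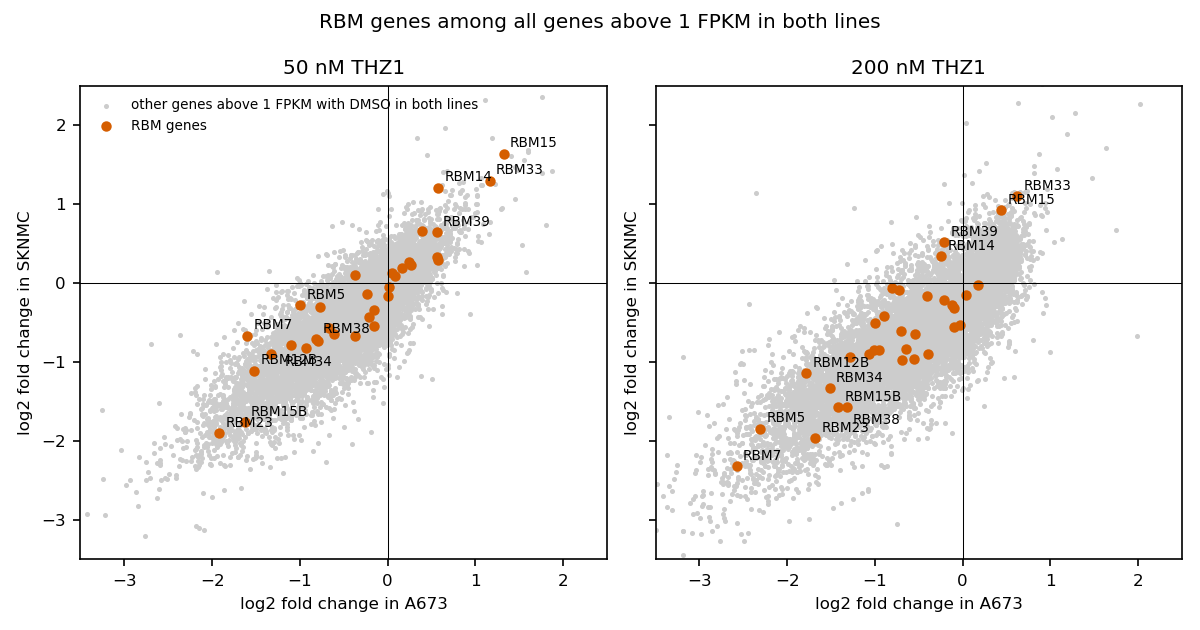
Log2 fold change against DMSO in A673 (x axis) and in SKNMC (y axis) at each dose, with the 33 RBM genes active in both lines in orange and the other genes active in both in grey, 1 library per condition; genes beyond the axis limits are not drawn. At 50 nM RBM15 and RBM33 lie at the upper right edge of the cloud and RBM23 and RBM15B at the lower left, and at 200 nM RBM7 is the lowest of the 33 in both lines.

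The m6A adaptors RBM15 and RBM15B changed in opposite directions at 50 nM. RBM15 (chr1:110881127-110889299, hg19, plus strand) recruits the m6A methyltransferase complex to RNA, and RBM15B (chr3:51428730-51435330, plus strand) is its paralogue with the same role. RBM15 was at 6.39 FPKM with DMSO in A673, 17.5 at 50 nM and 9.03 at 200 nM, and at 8.34, 28.1 and 16.8 in SKNMC. RBM15B was at 11.3, 2.98 and 3.60 FPKM in A673 and at 23.5, 6.24 and 7.22 in SKNMC. RBM15 was thus lowest with DMSO and highest at 50 nM in both lines, and RBM15B was the reverse. The log2 fold change of RBM15 at 50 nM was 1.32 in A673, where 13 of 11077 active genes changed more upwards, and 1.64 in SKNMC, where 8 of 11896 did. At 200 nM it was 0.44 and 0.93 and no longer reached 2-fold on this scale, although the SKNMC level was 201% of DMSO before the added 1. RBM15B changed by -1.63 and -1.42 in A673 and by -1.76 and -1.58 in SKNMC. RBM15B overlaps VPRBP on the other strand, and whether the counting used strand is not stated in the sources used here.

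For the writer complex that both adaptors serve, calls were mostly made at the high dose. Of METTL3, METTL14, WTAP, KIAA1429, ZC3H13 and CBLL1, 0 of 6 decreased at 50 nM in A673 (with 15.9% of all active genes called) and 1 in SKNMC (with 15.8%), and at 200 nM 5 of 6 decreased in A673 (with 25.3%) and 4 of 6 in SKNMC (with 27.3%). CBLL1, the ubiquitin ligase-like subunit, had the lowest values, at -1.71 in A673 and -2.07 in SKNMC at 200 nM. METTL3, the catalytic subunit, had the smallest change at that dose, at -0.37 and -0.65. RBM15 therefore stood apart from its paralogue and from the 6 writer subunits, all of which were below DMSO at 200 nM in both lines.

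RBM33 (chr7:155437144-155574179, plus strand), an RNA-binding protein linked to m6A removal and mRNA export, was the other member that increased in both lines. Its level was 9.78 FPKM with DMSO in A673, 23.2 at 50 nM and 15.6 at 200 nM, and 14.6, 37.4 and 32.4 in SKNMC. Both doses were above DMSO in both lines, with the low dose the higher. The log2 fold change was 1.17 and 0.62 in A673 and 1.30 and 1.10 in SKNMC. Scaled to the ribosomal protein genes its values were 0.93 and 0.24 in A673 and 0.94 and 0.52 in SKNMC, below the 2-fold threshold, whereas RBM15 stayed above it at 50 nM under every scaling (1.09 to 1.57 in A673 and 1.27 to 1.94 in SKNMC).

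The RBM4 and RBM14 genes sit together on chromosome 11. RBM14 (chr11:66384052-66394818, plus strand), a transcriptional coactivator that also builds paraspeckles, was at 51.4, 77.4 and 43.2 FPKM in A673 and at 41.6, 97.6 and 53.0 in SKNMC in the order DMSO, low dose, high dose. RBM4 (chr11:66384096-66434153, plus strand), a splicing and translation regulator, was at 100.1, 119 and 92.2 FPKM in A673 and at 119, 143 and 97.9 in SKNMC. Both peaked at 50 nM, RBM14 reaching a log2 fold change of 0.58 in A673 and 1.21 in SKNMC and RBM4 0.24 and 0.27. RBM4B, the paralogue on the other strand, was at 13.7, 5.85 and 5.05 FPKM in A673 and at 16.5, 9.18 and 8.13 in SKNMC. It decreased in A673 at both doses (-1.10 and -1.28), and in SKNMC its values of -0.79 and -0.94 fell short of 2-fold. The readthrough RBM14-RBM4 was between 1.98 and 5.51 FPKM. RBM14, RBM4 and the readthrough share exons and RBM4 overlaps RBM4B on the other strand, so the division of fragments among these 4 entries is uncertain. Scaling turned the sign of RBM4 at both doses and of RBM14 at 200 nM in both lines. The paraspeckle core genes SFPQ, NONO and PSPC1 did not reach 2-fold in any comparison (0 of 3 called in each), with values between -0.34 and 0.45.

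Among the splicing members, RBM39 and RBM23 moved apart. RBM39 (chr20:34291530-34330234, minus strand) is a U2AF2-related splicing factor and the target of aryl sulfonamide degraders, and RBM23 (chr14:23369853-23388393, minus strand) is its close relative. RBM39 was at 102 FPKM with DMSO in A673, 151 at 50 nM and 88.4 at 200 nM, and at 131, 205 and 187 in SKNMC. RBM23 was at 34.7, 8.45 and 10.2 FPKM in A673 and at 27.8, 6.71 and 6.36 in SKNMC. RBM23 thus lost most of its level at the low dose already, with log2 fold changes of -1.92 and -1.68 in A673 and of -1.90 and -1.97 in SKNMC, and at 50 nM 197 active genes in A673 and 198 in SKNMC changed more downwards. RBM39 stayed under 2-fold, at 0.56 and 0.65 at 50 nM and at -0.21 and 0.52 at 200 nM in A673 and SKNMC, and under other scalings its sign at 200 nM turned in both lines.

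The other 6 spliceosome-linked members were RBM17 and RBM25, which act in splice site choice, RBM22 of the catalytic spliceosome, RBM42 of the tri-snRNP, and RBM41 and RBM48 of the minor spliceosome. RBM25 was at 37.7, 56.3 and 21.1 FPKM in A673 and at 34.9, 44.05 and 33.3 in SKNMC. RBM22 was at 35.1, 29.6 and 16.3 FPKM in A673, a decrease of 1.06 on the log2 scale at 200 nM, and at 27.8, 25.2 and 14.4 in SKNMC, where -0.90 was not called. Both had their lowest value at 200 nM. RBM48, in contrast, was lowest at 50 nM, at 6.79, 2.09 and 3.18 FPKM in A673 and 9.83, 4.81 and 7.10 in SKNMC, and it was called only in A673 at 50 nM (-1.33; -0.90 in SKNMC). Its partner ARMC7 decreased in both lines at 50 nM, with log2 fold changes of -1.497 and -1.405. RBM17, RBM42 and RBM41 had no call, with values between -0.77 and 0.13.

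The wider splicing lists are given by their counts, beside which 15.9% of all active genes decreased in A673 and 15.8% in SKNMC at 50 nM, and 25.3% and 27.3% at 200 nM. Of 18 U2 snRNP and 3′ splice site genes, 1 decreased in A673 and 2 in SKNMC at 50 nM and 2 in each line at 200 nM. PHF5A, a subunit of the U2 factor SF3b, decreased in both lines at 50 nM (-1.23 and -1.20). Of 12 Prp19-related genes, 0 in A673 and 1 in SKNMC decreased at 50 nM and 3 and 4 at 200 nM, and of 10 minor spliceosome genes 2 and 1 decreased at 50 nM and 5 and 3 at 200 nM. RBM8A, the Y14 subunit of the exon junction complex, was at 84.6, 55.2 and 57.4 FPKM in A673 and at 83.0, 52.6 and 42.3 in SKNMC, below DMSO in every THZ1 library and under 2-fold throughout (-0.55 to -0.96). The 7 other exon junction genes listed had 0 calls in every comparison. A last list held RBMX, its relatives RBMX2 and RBMXL1, the RBMS genes and the cold-inducible CIRBP. At 50 nM 0 of its 7 active genes decreased in A673 and 1 of 6 in SKNMC, and 1 in each line did at 200 nM. Over all 8 partner lists, 6 of 70 active genes decreased at 50 nM in A673 (8.57%) and 8 of 69 in SKNMC (11.6%), 20 of 70 (28.6%) and 17 of 69 (24.6%) decreased at 200 nM, and 0 increased in any comparison. The transcriptome shares in the same order were 15.9%, 15.8%, 25.3% and 27.3%, and whether the partner shares differ from them was not tested.

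RBM5, RBM6 and RBM10 are related splicing regulators, RBM5 and RBM6 being neighbours on chromosome 3 whose spans overlap on the same strand. RBM5 (chr3:50126340-50156454, plus strand), which promotes the skipping of exons in apoptosis genes, was at 13.1, 6.05 and 1.85 FPKM in A673 and at 33.7, 27.6 and 8.66 in SKNMC. It fell step by step with dose, and at 200 nM its log2 fold change was -2.31 in A673 and -1.85 in SKNMC. RBM6 was at 11.7, 12.4 and 9.88 FPKM in A673 and at 19.3, 20.6 and 16.5 in SKNMC. RBM10 was at 23.3, 20.9 and 17.4 FPKM in A673 and at 25.4, 19.8 and 13.1 in SKNMC. RBM5 alone of the 3 reached 2-fold, and at 50 nM its A673 value of -0.997 was just short of the threshold while that in SKNMC was -0.28, with a sign that turned under scaling to the 75th percentile.

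RBM7 (chr11:114270751-114284925, plus strand), the RNA-binding subunit of the nuclear exosome targeting (NEXT) complex, had the deepest fall of all members at 200 nM. It was at 22.0 FPKM with DMSO in A673, 6.56 at 50 nM and 2.85 at 200 nM, and at 15.7, 9.52 and 2.33 in SKNMC. The level at 200 nM was 13.0% of DMSO in A673 and 14.9% in SKNMC, and at 50 nM 29.9% and 60.7%. The log2 fold change was -1.60 and -2.58 in A673 and -0.67 and -2.32 in SKNMC, so the call at 50 nM was made in A673 alone, a difference between lines that has no test. RBM7 overlaps C11orf71 on the other strand. Its NEXT partner ZCCHC8 decreased at 200 nM in both lines (-2.05 and -1.86), and ZC3H18, which links such adaptors to the cap, decreased at 50 nM in both (-1.13 and -1.16), as did ZC3H3, another zinc finger protein of nuclear RNA decay (-1.24 and -1.02). Of the 7 exosome adaptor genes listed, 3 in A673 and 2 in SKNMC decreased at 50 nM (with 15.9% and 15.8% of all active genes) and 4 and 3 at 200 nM (with 25.3% and 27.3%). SRRT, the cap-linked ARS2 protein, was the 1 gene of the list above DMSO in every comparison (0.53 to 0.83), with no call.

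RBM26 and RBM27, related proteins of another exosome adaptor complex, differed from RBM7 in direction at the low dose only. At 200 nM all 3 were below DMSO in both lines. RBM26 (chr13:79885961-79980612, minus strand) was at 10.5, 16.2 and 7.71 FPKM in A673 and at 26.8, 32.9 and 23.8 in SKNMC. RBM27 was at 18.5, 22.5 and 8.66 FPKM in A673 and at 18.1, 21.3 and 9.60 in SKNMC. Both were highest at 50 nM and lowest at 200 nM, and the 1 call was RBM27 in A673 at 200 nM (-1.01, against -0.85 in SKNMC).

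In ribosome biogenesis, RBM34 (chr1:235294497-235324772, minus strand), a nucleolar protein, was at 21.0, 10.6 and 6.71 FPKM in A673 and at 36.3, 20.1 and 13.8 in SKNMC. It decreased in both lines at 200 nM (-1.52 and -1.33) and was close to the threshold at 50 nM (-0.93 and -0.82); its span overlaps that of ARID4B. RBM28, a factor of the large subunit, was at 33.1, 25.5 and 16.1 FPKM in A673 and at 30.7, 32.9 and 21.4 in SKNMC, with no call. RBM19, needed for small subunit RNA processing, hardly moved, at 9.19, 9.22 and 8.50 FPKM in A673 and at 9.23, 8.15 and 7.21 in SKNMC.

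The cold-inducible RBM3 (chrX:48432836-48437454, plus strand), which supports translation under mild cold, was the most abundant member, at 309, 313 and 318 FPKM in A673 and at 308, 297 and 278 in SKNMC. Its level differed by no more than 0.15 on the log2 scale from DMSO, and its sign turned with scaling at both doses in both lines. RBM3 held so much of the family's RNA that the sum over members is given with and without it. With it the members made up 0.281%, 0.278% and 0.209% of all listed FPKM in A673 and 0.299%, 0.312% and 0.237% in SKNMC, from DMSO to the high dose. Without it they summed to 978, 945 and 646 FPKM in A673 and to 1078, 1131 and 796 in SKNMC, so the drop lay between the low and the high dose.

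Among regulators used in particular tissues, RBM38 (chr20:55966462-55984389, plus strand), a p53 target that binds mRNAs such as that of CDKN1A, was at 29.2, 16.2 and 11.1 FPKM in A673 and at 95.4, 58.0 and 31.4 in SKNMC. It decreased in both lines at 200 nM (-1.32 and -1.57), and its SKNMC level at 200 nM was still above its A673 level with DMSO. RBM11, a splicing regulator of brain and testis, was at 97.8, 61.1 and 50.1 FPKM in A673 and at 55.2, 37.0 and 30.2 in SKNMC, with no call (-0.56 to -0.95). RBM47 (chr4:40425271-40632892, minus strand), a regulator of splicing and RNA editing in epithelia, was at 2.67, 0.255 and 0.494 FPKM in SKNMC, a decrease of 1.55 and 1.30 on the log2 scale. In A673 RBM47 was at 0.0826 FPKM with DMSO and listed at 0 at 50 nM. RBM45, a neural RNA-binding protein, was between 4.08 and 7.45 FPKM with no call.

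RBM12 and RBM12B, whose functions are less well known, again split. RBM12 was at 39.9, 52.7 and 24.2 FPKM in A673 and at 52.9, 84.5 and 34.4 in SKNMC, above DMSO at 50 nM and below it at 200 nM in both. RBM12B (chr8:94741583-94753245, minus strand) was at 10.3, 2.93 and 2.28 FPKM in A673 and at 8.60, 3.45 and 3.35 in SKNMC, and it decreased in all 4 comparisons (-1.11 to -1.79). RBM12 shares its span with CPNE1 and RBM12B with its antisense entry, which was at 1.38, 0.178 and 0.411 FPKM in A673. RBM18 was at 13.8, 15.7 and 8.52 FPKM in A673 and at 10.3, 11.8 and 5.31 in SKNMC, without a call. RBM43 shows what the added 1 does at low levels: 0.696 FPKM at 50 nM in A673 was 36.1% of its DMSO level of 1.93, and the log2 fold change was -0.79.

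**Figure D3:**
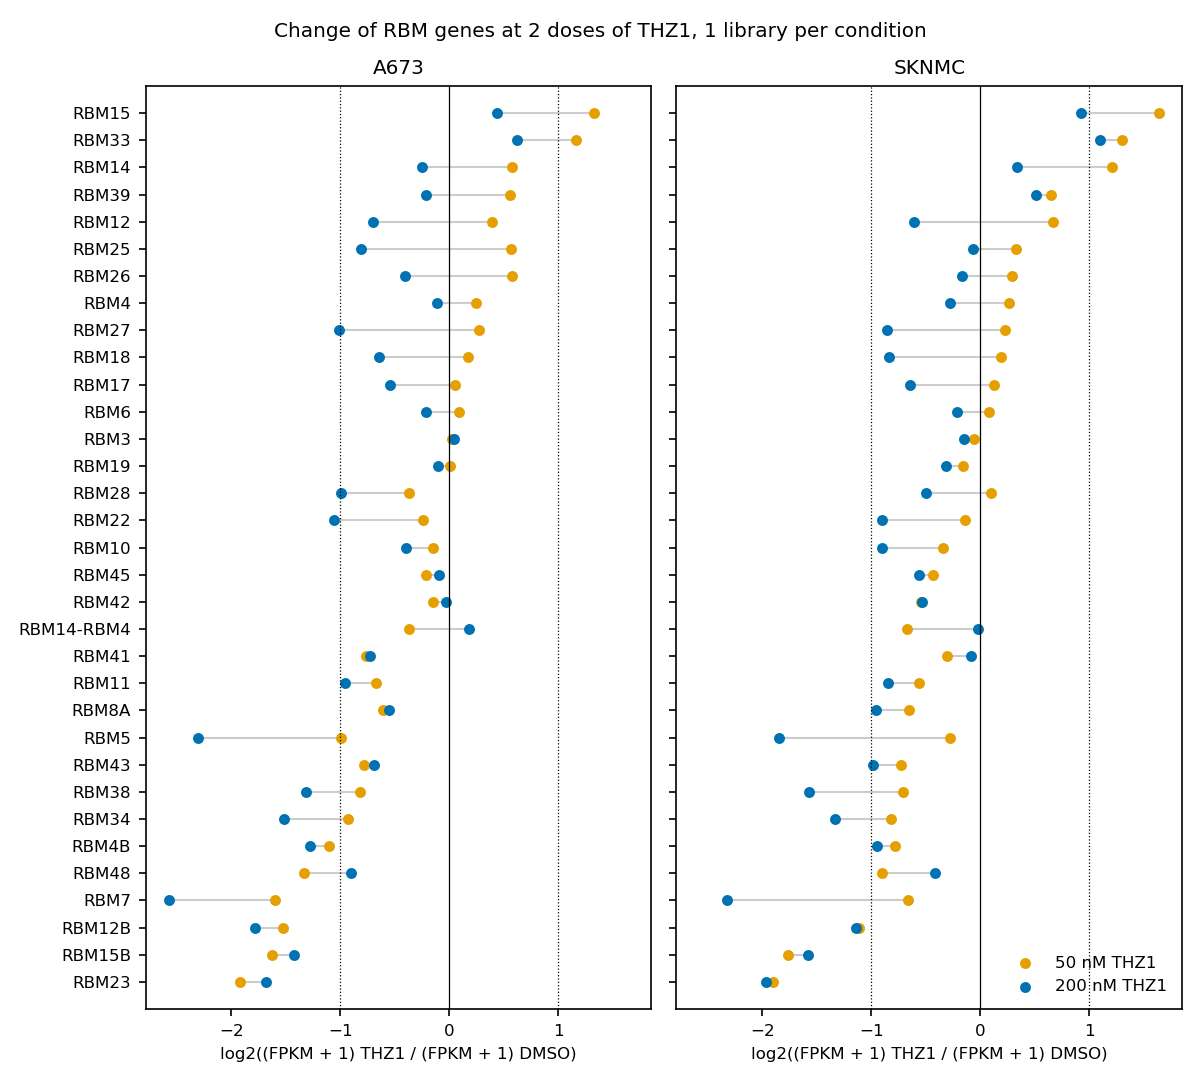
Log2((FPKM + 1) with THZ1 / (FPKM + 1) with DMSO) of the 33 RBM genes active in both lines at 50 nM (orange) and 200 nM (blue), 1 library per condition, ordered by the mean change at 50 nM; dotted lines mark 2-fold. RBM15 and RBM33 lie beyond 1 in both lines at 50 nM, and RBM5 and RBM7 show the longest step from 50 to 200 nM in SKNMC.

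A comparison chosen after the values were seen set 7 pairs of related members against each other. The ratio of RBM15 to RBM15B in FPKM was 0.565 with DMSO in A673, 5.86 at 50 nM and 2.51 at 200 nM, and 0.354, 4.51 and 2.32 in SKNMC. Which of the pair was the more abundant thus turned over with THZ1. RBM39 to RBM23 went from 2.95 to 17.9 and 8.69 in A673 and from 4.70 to 30.6 and 29.4 in SKNMC. RBM12 to RBM12B went from 3.88 to 17.98 and 10.6 in A673 and from 6.15 to 24.5 and 10.3 in SKNMC. RBM4 to RBM4B went from 7.31 to 20.3 and 18.3 in A673 and from 7.17 to 15.6 and 12.05 in SKNMC. The difference between the log2 fold changes of a pair at 50 nM was 2.95 in A673 and 3.40 in SKNMC for RBM15 and RBM15B, 2.48 and 2.55 for RBM39 and RBM23, 1.91 and 1.77 for RBM12 and RBM12B, and 1.34 and 1.05 for RBM4 and RBM4B. A pair of genes in 1 library shares its scaling, so scaling moves these differences only through the added 1. No scaling turned their sign, which is therefore no check on them.

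RBM6 and RBM5 parted most at the high dose, their ratio going from 0.891 to 2.05 and 5.35 in A673 and from 0.574 to 0.746 and 1.91 in SKNMC. At the low dose their log2 fold changes differed by 1.08 in A673 and by 0.36 in SKNMC. RBM27 and RBM26 were closer, their log2 fold changes differing by -0.30 in A673 and -0.07 in SKNMC at the low dose, with wider gaps of -0.60 and -0.69 at the high dose. For RBM10 minus RBM5 the difference was 0.85 and -0.06 at the low dose, and 1.91 and 0.94 at the high dose. Shared sequence could mix the values of relatives: 7.35% of the 50-base windows of the longest RBM4 transcript were also found in that of RBM4B, and 0% in each of the other pairs.

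**Figure D4:**
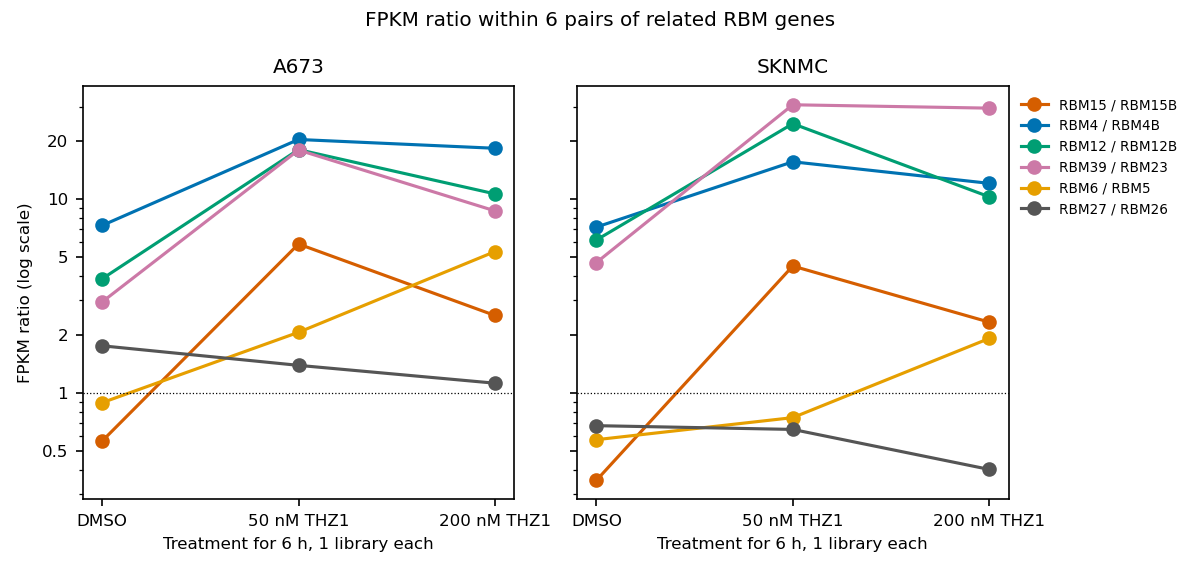
Ratio of FPKM (log scale) of the first to the second gene of 6 pairs of related RBM genes with DMSO, 50 nM and 200 nM THZ1, 1 library per point; the dotted line marks equal levels. The RBM15 to RBM15B line crosses 1 in both lines, from 0.565 to 5.86 in A673 and from 0.354 to 4.51 in SKNMC, while RBM27 to RBM26 falls with dose.

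The order of the 3 libraries was also examined after the values were seen, and its counts moved with scaling and with overlapping members. Highest at 50 nM in both lines were 12 of 33 members (36.4%, with 11.3% of the 10574 genes active in both). They were RBM39, RBM4, RBM17, RBM14, RBM12, RBM25, RBM27, RBM18, RBM6, RBM26, RBM33 and RBM15, and of these RBM15 and RBM33 alone stayed above DMSO at 200 nM in both lines. In A673 alone 13 of 34 had this order (38.2%, with 15.3% called) and in SKNMC 13 of 34 (38.2%, with 19.4%). Above DMSO at the low dose and below it at the high dose were 11 of 34 in A673 (32.4%, with 10.1%) and 9 of 34 in SKNMC (26.5%, with 14.3%). Falling at each step were 10 of 34 in A673 (29.4%, with 36.4%) and 15 of 34 in SKNMC (44.1%, with 42.7%). The count of 12 was 11 (with 14.0%) after scaling to the 75th percentile. It was 5 (RBM39, RBM14, RBM12, RBM33 and RBM15, with 4.76%) after scaling to the ribosomal protein genes. Among members whose span overlaps no other listed gene it was 4 of 16, beside the same 11.3% of all genes active in both lines.

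**Figure D5:**
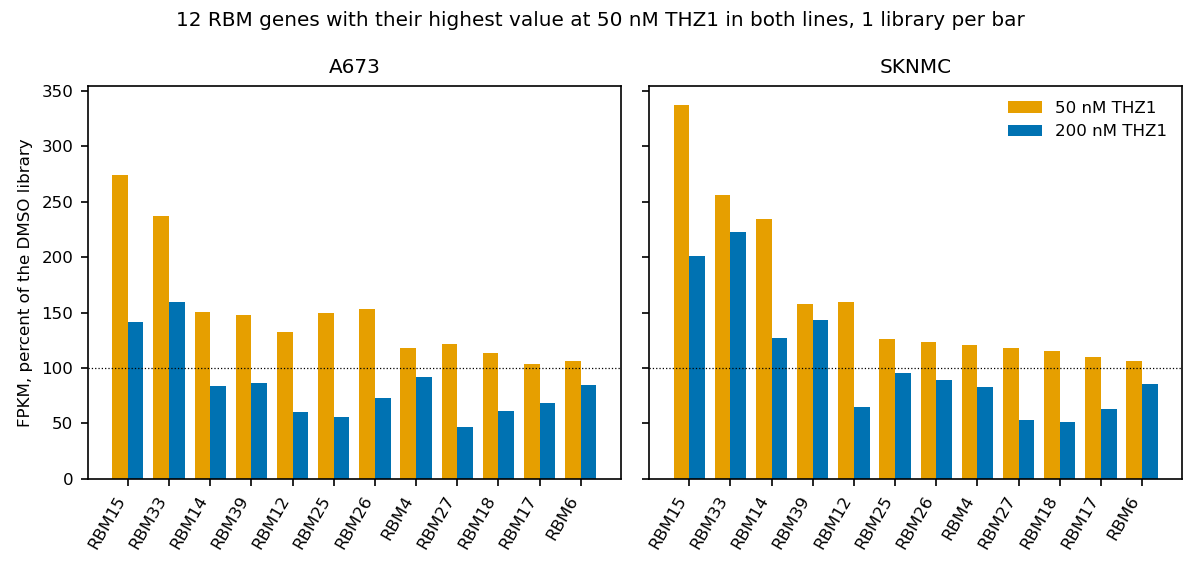
FPKM as a percent of the DMSO library of the same line for the 12 RBM genes that were highest at 50 nM in both lines, with bars from 0 for 50 nM (orange) and 200 nM (blue), 1 library per bar; the dotted line marks 100%. The first 2 genes, RBM15 and RBM33, stand above 200% at 50 nM in both lines, and 8 of the 12 in SKNMC and 10 of the 12 in A673 have their 200 nM bar below 100%.

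Set against 50 nM directly, 23 of 34 members were lower at 200 nM in A673 (67.6%, with 51.7% of all active genes) and 28 of 34 in SKNMC (82.4%, with 62.0%). A fall of at least 2-fold between the doses was found for 4 members in A673 (11.8%, with 7.44% called) and 5 in SKNMC (14.7%, with 8.39% called), and a rise of that size for 0 in either line (with 0.117% and 0.370% called). RBM5 fell by 1.31 on the log2 scale between the doses in A673 and by 1.57 in SKNMC, and RBM12 by 1.09 and 1.27. RBM27 fell by 1.28 and 1.08. RBM25 passed this mark in A673 alone (-1.37; -0.39 in SKNMC), and RBM7 (-1.66; -0.97 in A673) and RBM18 (-1.03; -0.81 in A673) in SKNMC alone. RBM5, RBM12 and RBM27 thus passed it in both lines, whereas RBM23 and RBM15B, already low at 50 nM, changed by 0.24 and 0.21 in A673 and by -0.07 and 0.18 in SKNMC.

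With DMSO, 4 of the 35 members active in at least 1 line differed at least 2-fold between A673 and SKNMC (11.4%, with 23.5% called). All 4 were higher in SKNMC (with 1865 of 12399 genes called), and 0 were higher in A673 (with 1044, or 8.42%, called). Genes active in at least 1 line thus also leaned towards SKNMC as a whole. RBM38 was at 29.2 FPKM in A673 and 95.4 in SKNMC, RBM5 at 13.1 and 33.7, RBM26 at 10.5 and 26.8, and RBM47 at 0.0826 and 2.67. RBM15B, at 11.3 and 23.5, was just short of the mark at -0.996 (A673 minus SKNMC, log2 scale). RBM3, RBM19 and RBM43 differed by less than 0.01 between the lines on this scale.

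Beyond their names, the active members had somewhat shorter spans, with a median of 22.6 kb in A673 and 26.9 kb in SKNMC against 31.7 kb for all active genes. Single members of similar span could differ in direction. Of the short ones, RBM3 (4.62 kb) and RBM8A (5.94 kb) had no call, RBM15B (6.60 kb) decreased and RBM15 (8.17 kb) increased. Of the long ones, RBM33 (137 kb) increased and RBM47 (208 kb) decreased in SKNMC. All active members that decreased in A673 at 50 nM had spans of 18.5 kb (RBM23) or less. So did members that did not decrease there, RBM3, RBM8A and RBM15 among them. The share of all active genes with spans this short was not computed, and whether span bears on the decreases was not tested. Spearman's rho between span and log2 fold change over the 34 members was 0.39 in A673 and 0.27 in SKNMC at 50 nM, against 0.18 in both lines over all active genes, and 0.14 and 0.20 at 200 nM, against -0.01 and 0.04. Points share a library, and the values are descriptions over genes.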

How the data were processed

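Per the labels, RNA-seq was made from A673 and SKNMC cells with DMSO, 50 nM or 200 nM THZ1 for 6 h, 1 library each; the sources do not say what cultures a column stands for. The authors aligned reads to hg19 with STAR and deposited FPKM per Ensembl gene; the methods name StringTie and the submitters' processing notes Cufflinks as the estimator. The 4 deposited columns of log2 fold changes were not used. FPKM holds no counts, so no interval could be given. Fold changes, activity and calls were computed as stated in the text with Python 3.11.15 and pandas 2.3.3, on all genes. The code was run on simulated data with planted shifts far above 2-fold. That run checks the code and not how reliable calls near the threshold are. Locations are hg19 as deposited; transcript features came from GENCODE on GRCh37. Members named with full values were those changed at least 2-fold alike in both lines, the 3 most abundant, the 3 with the largest mean rise at each dose, those of opposite sign in the lines at both doses (none met the size set), and those at least 2-fold apart between lines; of the partner lists, genes changed at least 2-fold in both lines at 50 nM. Other members' values, and CBLL1, METTL3, ZCCHC8 and SRRT, were added after their values were seen. The members and lists were chosen with earlier results of these data known. Alternatives were pseudocounts of 0.1 and 0, activity above 5 FPKM, 3 scalings, a 1.5-fold threshold and leaving out overlapping members.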

Additional observations from a re-analysis of the deposited data

Results flagged for a closer look

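Changes of opposite sign in the 2 lines were seen for 6 members, and none of these differences was tested, since each condition has 1 library. RBM3 had log2 fold changes of 0.020 in A673 and -0.052 in SKNMC at 50 nM, and of 0.040 and -0.15 at 200 nM. RBM28 had -0.37 in A673 and 0.098 in SKNMC at 50 nM, and RBM19 had 0.0044 and -0.16. At 200 nM RBM39 had -0.21 in A673 and 0.52 in SKNMC, RBM14 had -0.25 and 0.34, and the readthrough entry RBM14-RBM4 had 0.18 and -0.022. All of these are under 2-fold, and after scaling to the 75th percentile of active genes RBM3, RBM39, RBM14 and RBM14-RBM4 were above DMSO in both lines at 200 nM.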

How the results depend on the processing

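No paired analysis was possible because the conditions share 1 replicate number only, with 1 library each; a fit over both lines with the line as a block was not run. No called value reversed, but for the change of a called member this outcome was fixed in advance. The largest shift of a treated library against DMSO was -0.59 on the log2 scale, in SKNMC at 200 nM by the ribosomal protein genes. That is short of 2-fold, and a pseudocount does not turn a sign. Decreased members in A673 at 50 nM (7) were 14 at 1.5-fold and 2 of 16 without overlapping members. At 200 nM (10) they were 6 by the 75th percentile (17.3% of all active genes called) and 16 by the ribosomal protein genes (36.4% called). The share called among all active genes thus moved the same way. At that dose they were also 19 at 1.5-fold (41.1% called) and 3 without overlaps. In SKNMC at 50 nM (4) they were 8 by the ribosomal protein genes, 12 at 1.5-fold and 2 of 17 without overlaps; at 200 nM (8) they were 19, 18 and 3. Increased members in A673 at 50 nM (2) were 1 by the ribosomal protein genes and 1 without overlaps, and at 200 nM (0) 1 at 1.5-fold; in SKNMC at 50 nM (3) they were 1, 1 and, at 1.5-fold, 5. At 200 nM in SKNMC (1) they were 2 without a pseudocount, 3 by the 75th percentile, 0 by the ribosomal protein genes, 0 without overlaps and 2 at 1.5-fold. The median difference from all active genes in SKNMC was -0.11 at 50 nM without overlaps and -0.18 at 200 nM by the ribosomal protein genes. The share of members lower at 200 nM than at 50 nM was 82.4% in A673 by the ribosomal protein genes and 58.8% in SKNMC by the 75th percentile. Members apart between lines (4) were 10 at 1.5-fold. The 12 members highest at 50 nM were 5 by the ribosomal protein genes and 4 without overlaps. The alternatives on the order of libraries and on pairs were chosen after seeing the data. The cause of these moves was not tested; a lower threshold and fewer members change counts by construction. Depth is unknown, so members near 1 FPKM are the least certain.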
